A study of Rattus norvegicus with 12 samples.

Results

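The signals of 10 chemokine genes, Ccl2, Ccl5, Ccl7, Cxcl1, Cxcl9, Cxcl10, Cxcl11, Cxcl12, Cxcl16 and Cx3cl1, were examined in renal cortex from 12 transplanted rat kidneys. The genes were taken by name, and every probe set whose platform annotation gave 1 of these symbols alone was used. This gave 13 probe sets: 3 of Cxcl12, 2 of Cxcl9 and 1 of each other gene. The 10 genes are among 14217 that a probe set named in this way. Total RNA of each graft was hybridised to 1 Affymetrix 3′ expression array, with 6 arrays of wild-type grafts and 6 of ABCC2-/- grafts. An ABCC2-/- graft is deficient in MRP2, a pump in the apical membrane of the proximal tubule that exports organic anions into urine. All recipients were wild type and all samples were labelled male. The strain, the age, the kind of Abcc2 allele and the time after transplantation are not given in the sources used here. Only the graft differed in genotype, and leukocytes that enter a graft come from its recipient, which was wild type in both groups. Kidneys that were not transplanted were not analysed here, so the values describe grafts relative to grafts.

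Chemokines are small secreted or membrane-bound proteins that guide leukocytes through G protein-coupled receptors. Cxcl9, Cxcl10 and Cxcl11 are induced by interferons and draw activated T cells through Cxcr3. Ccl2 and Ccl7 draw monocytes, Ccl5 draws T cells and monocytes, and Cxcl1 draws neutrophils through Cxcr2. Cxcl12 is made constitutively by stromal cells, and Cxcl16 and Cx3cl1 are made as transmembrane proteins that adhere leukocytes and can be shed by proteases. In kidney grafts these genes are known chiefly from studies of reperfusion injury and rejection.

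Signals are given in the linear units of the deposited values, in which probe sets are not compared with each other. The sources used here do not say how each array was scaled, which bears on comparisons between arrays. The median log2 signal ran from -1.77 to -1.57 over the 12 arrays. It was highest in ABCC2-/- replicates 3 (-1.57), 10 (-1.61) and 14 (-1.67), against -1.77 to -1.70 in the other 9. The signal of Abcc2, the targeted gene, was 0.899 ± 0.0746 in the wild-type group and 0.141 ± 0.0594 in the ABCC2-/- group (mean ± SD, n = 6 each). All ABCC2-/- values lay below all wild-type values (log2 difference -2.69, SE 0.22, limma adjusted p = 8.35e-06). Proximal tubule markers lay at a median of the 99.2 percentile of all probe sets and loop and collecting duct markers at 96.6. One feature of the arrays touches the results that follow. The first component of variation within genotypes (32.6% of it) separated the 3 arrays of each genotype that are listed first in the deposited series (wild-type replicates 1, 6 and 9 and ABCC2-/- replicates 5, 9 and 11) from the 3 listed last (wild-type 4, 7 and 8 and ABCC2-/- 3, 10 and 14). No label calls this a batch, and the sources used here do not say what differed between these arrays. The 3 ABCC2-/- arrays listed last also had a Gapdh 3′ to 5′ log2 ratio, a measure of RNA quality and labelling, of 0.359 to 0.449, against 0.71 to 0.947 in the other 9. The labels do not say that the grafts of a genotype had separate donors and recipients, so p-values measure the spread between these samples.

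The upstream sequences of the interferon-inducible genes are shown because these 3 genes are induced by interferons and lie next to each other. Cxcl9, Cxcl10 and Cxcl11 are consecutive protein-coding genes on chromosome 14 in the GRCr8 gene table of RefSeq, and Ccl2 and Ccl7 are direct neighbours on chromosome 10. RefSeq promoter entries matched 8 of the 10 genes, and Ccl2 and Ccl5 were not matched. The 250 bases before each transcription start were searched on both strands for 3 motifs. These were the NF-kB consensus, the interferon-stimulated response element core (GAAA, any 2 bases, then GAAA) and the interferon-gamma activated site TTCNNNGAA. Matches are in capitals below, each sequence runs 5′ to 3′ on the plus strand (the strand of the gene), and the regions are chr14:16006916-16007165 for Cxcl9, chr14:15988816-15989065 for Cxcl10 and chr14:15973478-15973727 for Cxcl11, all in GRCr8.
Cxcl9: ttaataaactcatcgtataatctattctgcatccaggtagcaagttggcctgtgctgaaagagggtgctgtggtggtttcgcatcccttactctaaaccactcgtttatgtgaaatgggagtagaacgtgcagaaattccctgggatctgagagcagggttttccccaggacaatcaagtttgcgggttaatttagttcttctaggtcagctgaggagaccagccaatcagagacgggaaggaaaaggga
Cxcl10: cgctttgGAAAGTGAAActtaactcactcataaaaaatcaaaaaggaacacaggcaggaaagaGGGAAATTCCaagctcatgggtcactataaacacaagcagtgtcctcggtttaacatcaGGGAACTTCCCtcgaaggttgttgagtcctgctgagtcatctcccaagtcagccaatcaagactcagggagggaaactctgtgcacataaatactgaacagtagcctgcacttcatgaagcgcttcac
Cxcl11: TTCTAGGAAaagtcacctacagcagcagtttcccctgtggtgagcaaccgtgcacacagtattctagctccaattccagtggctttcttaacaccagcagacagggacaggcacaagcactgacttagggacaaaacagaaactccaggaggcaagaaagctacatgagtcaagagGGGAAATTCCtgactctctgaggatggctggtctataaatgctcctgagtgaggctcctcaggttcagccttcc
In Cxcl10 the response element core lay 243 to 234 bases before the start. NF-kB matches of Cxcl10 lay at 187 to 178 and at 128 to 119 bases before the start, the latter overlapping a match on the other strand at 127 to 118. Cxcl11 held an activated site at 250 to 242 bases before the start and an NF-kB match at 74 to 65. In Cxcl9 none of these letters stood in this window, which says nothing of factors that bind elsewhere. Of the other 5 genes searched, Cxcl1 (84 to 75 bases before the start, overlapping 83 to 74 on the other strand) and Ccl7 (59 to 50, on the other strand) held an NF-kB match. Among all 27456 promoters of this length the share with a match was 6.42% for NF-kB, 3.29% for the response element core and 7.52% for the activated site. Since no array probe reads a promoter, these matches are a description of sequence.

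No chemokine passed the test of genotype. Low signals were raised to a floor of 0.0694, the 20th percentile of all values, and probe sets whose mean log2 signal was under the 40th percentile were not tested. Of the 13 probe sets, 10 of 8 genes passed the level filter, and those of Ccl7 and Cxcl1 and Cxcl9 probe set 2 were too dim. None of the 10 had a limma adjusted p under 0.05, the range being 0.606 to 0.997, and across all 18625 probe sets tested only 4 (0.0215%) passed. At an unadjusted p under 0.05 there was 1 of the 10, Cxcl12 probe set 2, where 7.98% of all tested probe sets were under it. By the exact permutation test, among the 13 chemokine probe sets, the p was under 0.05 for Cxcl12 probe set 2 (0.0108) and Cxcl16 (0.0411). The share of all probe sets under 0.05 by that test was not computed, so it is not known whether this is more than usual. The sign was positive at 5 and negative at 5, with a median log2 difference (ABCC2-/- minus wild type) of 0.02 beside -0.02 over all tested probe sets, of which 45.4% were positive. The genotypes overlapped at all 13 chemokine probe sets, whereas 0.403% of the 31042 probe sets other than controls had no overlap. In tissue RNA, fewer cells of a type and less RNA per cell cannot be told apart, which holds for every value below.

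**Figure D1:**
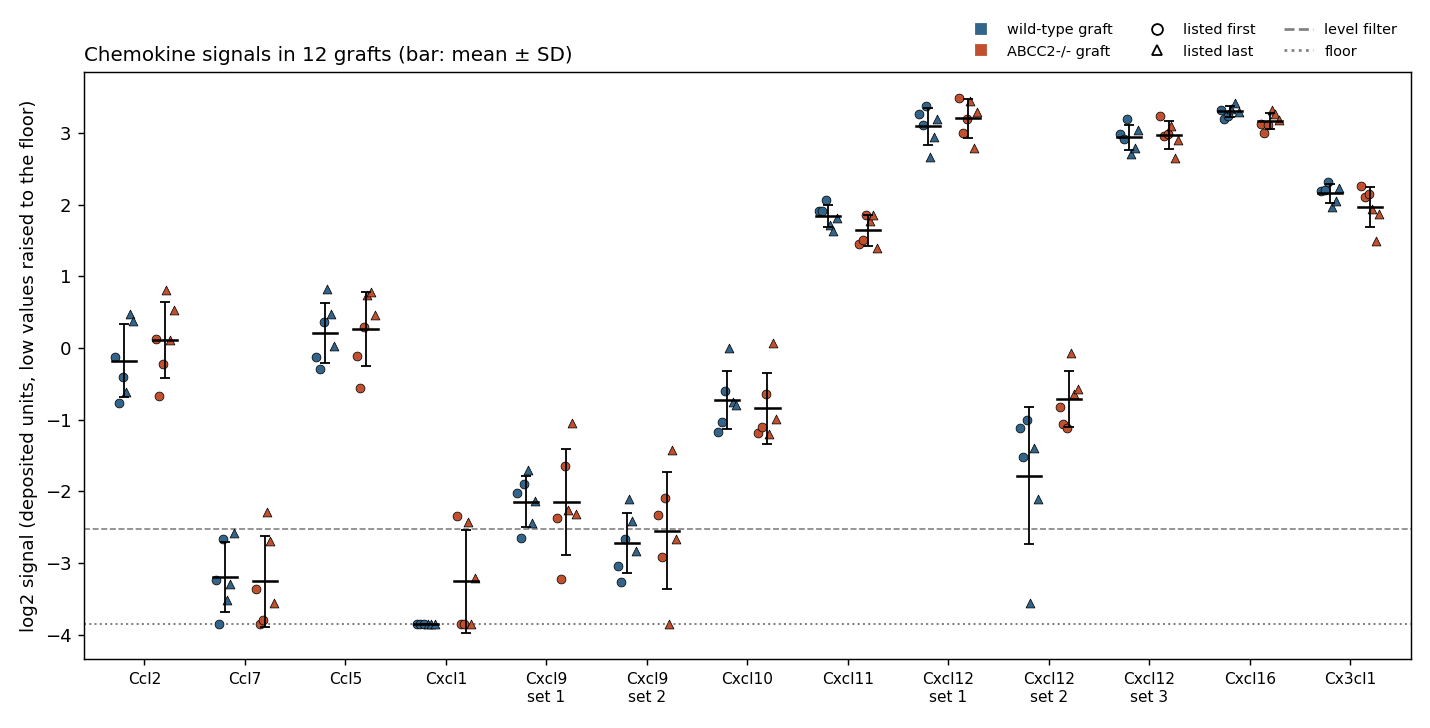
Log2 signal (deposited units, values under the floor raised to it) of the 13 chemokine probe sets in 6 wild-type (blue) and 6 ABCC2-/- (orange) grafts, with circles for arrays listed first, triangles for arrays listed last, and bars for mean ± SD. The genotypes overlap at every probe set, and the 6 wild-type values of Cxcl1 all sit at the floor.

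**Figure D2:**
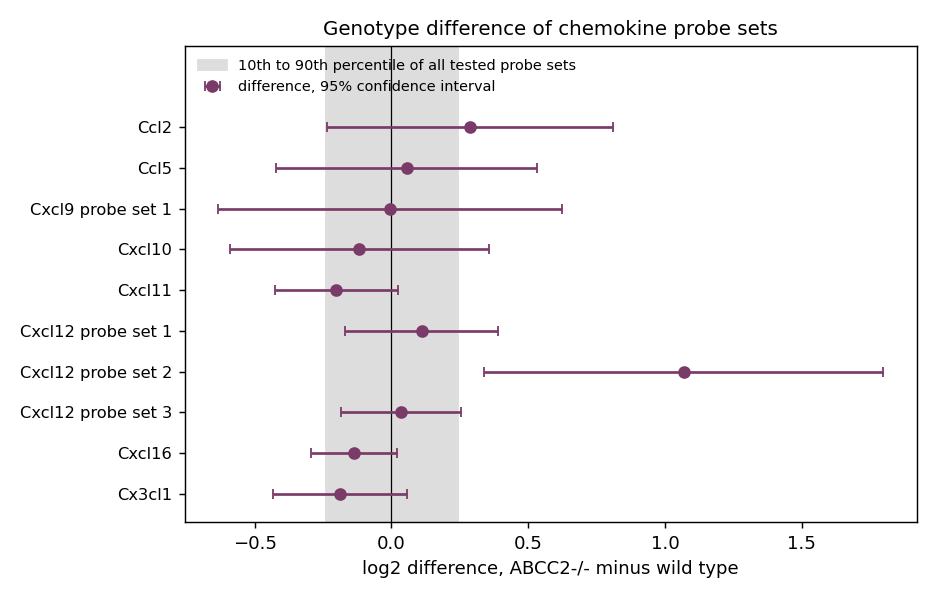
Log2 difference (ABCC2-/- minus wild type) of the 10 probe sets that passed the level filter, with limma 95% confidence intervals, n = 6 per genotype. The grey band holds the 10th to 90th percentile of all tested probe sets (-0.24 to 0.24), and the interval of Cxcl12 probe set 2 alone lies wholly above 0.

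No Cxcr3 ligand differed between genotypes beyond the spread of the grafts. The signal of Cxcl9 probe set 1 had a lowest, median and highest value of 0.159, 0.237 and 0.308 in wild-type grafts and 0.107, 0.205 and 0.482 in ABCC2-/- grafts. ABCC2-/- grafts held both the lowest value, in replicate 9, and the highest, in replicate 10, so that their range enclosed that of the wild type. The log2 difference was -0.0048 (95% confidence interval -0.63 to 0.62, limma adjusted p = 0.997). Cxcl9 probe set 2, which did not pass the filter, ran from 0.104 to 0.231 in wild-type grafts and from 0.0347 to 0.374 in ABCC2-/- grafts (exact permutation p = 0.654), and its highest value was again ABCC2-/- replicate 10. The 2 probe sets disagreed in ABCC2-/- replicate 3, where probe set 1 read 0.209 and probe set 2 lay under the floor.

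Cxcl10 had a lowest, median and highest signal of 0.446, 0.588 and 0.996 in wild-type grafts. In ABCC2-/- grafts these were 0.434, 0.486 and 1.05. In each genotype 1 graft stood above the rest, wild-type replicate 4 and ABCC2-/- replicate 10, the next highest values being 0.657 and 0.641. The log2 difference was -0.12 (SE 0.22, 95% interval -0.59 to 0.35, limma adjusted p = 0.855), and it was 0.03 without wild-type replicate 4.

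The highest Cxcl11 signal was 1.59 times the lowest over the 12 grafts, where it was 2.42 times for Cxcl10 and 4.52 times for Cxcl9 probe set 1. Of these probe sets Cxcl11 read farthest above the floor and Cxcl9 nearest to it. The part of signal level in these ratios was not tested. Cxcl11 had 3.1, 3.63 and 4.19 as lowest, median and highest signal in wild-type grafts and 2.64, 3.13 and 3.63 in ABCC2-/- grafts. In 3 ABCC2-/- grafts it lay below the lowest wild-type value. The genotypes differed by -0.20 log2 (95% interval -0.43 to 0.02, limma adjusted p = 0.628, exact permutation p = 0.0909). It was -0.36 in the arrays listed first and -0.05 in those listed last. Cxcl11 did not share the high value of Cxcl10 in wild-type replicate 4, which at 3.29 was its second lowest wild-type graft. In ABCC2-/- replicate 10, the other graft high in Cxcl10, Cxcl11 was 3.62, close to the highest ABCC2-/- value of 3.63.

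The monocyte and T cell attractants of the CC class did not differ between genotypes beyond the spread of the grafts either. Ccl2 signals ranged from 0.591 through a median of 0.837 to 1.39 in wild-type grafts and from 0.628 through 1.08 to 1.75 in ABCC2-/- grafts. Replicates 3 and 14 of the ABCC2-/- grafts were above all wild-type grafts. Its log2 difference was 0.29 (SE 0.25, 95% interval -0.24 to 0.81, limma adjusted p = 0.694). In a fit that also held the Gapdh log ratio it was -0.0103, so its sign depended on that term. It was 0.15 without ABCC2-/- replicate 3 and up to 0.44 when another graft was left out.

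Ccl7, the neighbour of Ccl2, did not pass the filter and lay under the floor in wild-type replicate 6 and ABCC2-/- replicate 9. Its signal ran from 0.0193 through a median of 0.104 to 0.167 in wild-type grafts and from 0.0114 through 0.0911 to 0.205 in ABCC2-/- grafts (exact permutation p = 0.81). Those grafts were also the lowest of their genotype for Ccl2, and ABCC2-/- replicate 3 was the highest of all 12 for both genes. Neither gene passed a test of genotype.

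Ccl5, made by T cells, macrophages and platelets, had a lowest, median and highest signal of 0.818, 1.15 and 1.76 in wild-type grafts and 0.678, 1.3 and 1.72 in ABCC2-/- grafts. Its log2 difference was 0.06 (95% interval -0.42 to 0.53, limma adjusted p = 0.937). Ccl2 and Ccl5 differed more with list order than with genotype. Arrays listed last exceeded those listed first by 0.63 log2 for both genes, with genotypes averaged, and by 0.47 for Ccl7. The same difference was 0.35 for Cxcl10, 0.32 for Cxcl9 probe set 1 and 0.14 for Cxcl16, and it was negative for Cxcl11 (-0.09), Cx3cl1 (-0.28) and the 3 Cxcl12 probe sets (-0.18 to -0.28). These list order differences were not tested.

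Cxcl1, the neutrophil attractant, lay above the floor in 3 ABCC2-/- grafts and in no wild-type graft. All 6 wild-type values, 0.0166 to 0.0443, lay under the floor of 0.0694. Of the ABCC2-/- grafts, replicates 5, 3 and 14 lay above it at 0.197, 0.187 and 0.108, and replicates 10, 11 and 9 under it at 0.0623, 0.0207 and 0.01. The exact permutation test of the floored log2 values gave p = 0.182, and no fold is given, because the wild-type grafts had no value above the floor. Cxcl1 was above the floor in both listed orders, in replicate 5 among the arrays listed first and in replicates 3 and 14 among those listed last.

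Of the 3 neutrophil markers with a probe set, S100a9 and S100a8 were highest in the 2 grafts with the highest Cxcl1 and Csf3r was not. S100a9, a calcium-binding protein abundant in neutrophils, read 1.8 in ABCC2-/- replicate 5 and 1.51 in replicate 3, 0.644 in replicate 10, and at most 0.505 in the other 9 grafts. S100a8, its partner, read 0.377 and 0.376 in replicates 5 and 3 and at most 0.226 elsewhere. Csf3r, the receptor of granulocyte colony-stimulating factor, read 0.196 in replicate 5, above the wild-type range of 0.0968 to 0.18, and 0.128 in replicate 3. It was highest in ABCC2-/- replicates 11 (0.217) and 9 (0.206), where Cxcl1 lay under the floor. The summed signal of the 3 markers was 0.536 to 0.804 in wild-type grafts and 0.51 to 2.37 in ABCC2-/- grafts, the 2 highest being replicates 5 (2.37) and 3 (2.01). ABCC2-/- replicate 14 went the other way, with the lowest sum of all (0.51) and S100a9 at 0.38 while its Cxcl1 was above the floor. Cxcr2, the receptor of Cxcl1 on neutrophils, lay under the floor in 11 of 12 arrays, the exception being ABCC2-/- replicate 3 at 0.0848. S100a9 did not pass the test of genotype (log2 difference 0.56, SE 0.44, limma adjusted p = 0.677). The part of neutrophils in the Cxcl1 values was not tested.

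**Figure D3:**
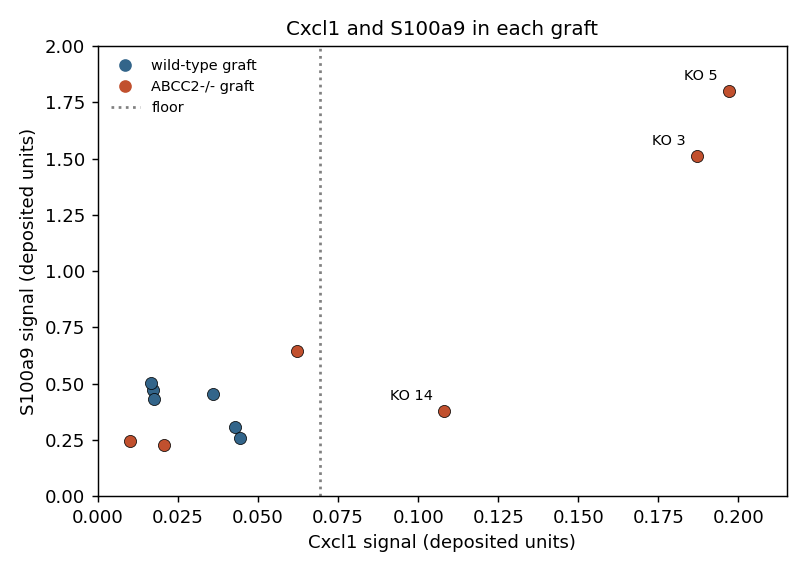
Cxcl1 signal (x axis) against S100a9 signal (y axis), both in deposited units, 1 point per graft, blue for wild type (WT) and orange for ABCC2-/- (KO), with the floor of 0.0694 dotted. ABCC2-/- replicates 5 and 3 stand apart on both axes, and replicate 14 is above the floor for Cxcl1 alone.

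Cxcl12, the stromal chemokine, was read by 3 probe sets, which gave unlike differences between genotypes. Probe set 1 gave a lowest, median and highest signal of 6.35, 8.91 and 10.4 in wild-type grafts and 6.92, 9.53 and 11.2 in ABCC2-/- grafts (log2 difference 0.11, 95% interval -0.17 to 0.39, limma adjusted p = 0.767). Probe set 3 gave 6.53, 7.73 and 9.18 against 6.3, 7.88 and 9.45 (log2 difference 0.04, 95% interval -0.18 to 0.26, limma adjusted p = 0.906). Both put wild-type replicate 4 and ABCC2-/- replicate 10 lowest in their genotype.

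Cxcl12 probe set 2 gave 0.0848, 0.366 and 0.498 in wild-type grafts and 0.463, 0.603 and 0.956 in ABCC2-/- grafts. In 4 ABCC2-/- grafts the signal lay above the highest wild-type graft, and in 2 it lay within the wild-type range. This gave a log2 difference of 1.07 (SE 0.34), a 2.1-fold higher signal with a 95% interval of 1.27 to 3.48, and an unadjusted limma p of 0.00674 that adjusted to 0.606. The exact permutation p was 0.0108, and without wild-type replicate 4 the difference was 0.71. The difference was 0.21 in the arrays listed first and 1.93 in those listed last. In the latter alone it passed (limma adjusted p = 0.0243, 3 arrays per genotype), where 6.39% of all probe sets passed as well. The 3 highest values of this probe set (0.956, 0.675 and 0.642) were those of the 3 arrays with the low Gapdh ratio, and the lowest (0.0848) was wild-type replicate 4. The part of that ratio in the difference was not tested apart from a fit that held it, where the log2 difference was 0.79. The sources used here do not say where in the transcript each probe set lies. Of the genes compared with Cxcl12 probe set 1 over the 12 arrays, Ogn (Pearson r 0.97, genotype means removed) and Frzb (0.94), both matrix-associated secreted proteins, were the most alike of 14111 named probe sets.

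Neither transmembrane chemokine passed the test of genotype. Cxcl16, the ligand of Cxcr6 and a scavenger receptor for oxidised lipid, had a lowest, median and highest signal of 9.16, 9.94 and 10.7 in wild-type grafts and 8.0, 8.9 and 9.96 in ABCC2-/- grafts. In 4 ABCC2-/- grafts it lay below the lowest wild-type graft. The genotypes differed by -0.14 log2 (SE 0.07, 95% interval -0.29 to 0.02, limma adjusted p = 0.629, exact permutation p = 0.0411). It was -0.18 in the arrays listed first and -0.10 in those listed last, and it kept its sign in each of the alternatives run.

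Cx3cl1, or fractalkine, which holds Cx3cr1-bearing monocytes and T cells, had a lowest, median and highest signal of 3.9, 4.59 and 4.99 in wild-type grafts and 2.81, 4.07 and 4.8 in ABCC2-/- grafts. The ABCC2-/- replicates 10, 14 and 3 lay below the lowest wild-type graft, and they are the 3 arrays with the low Gapdh ratio. Its log2 difference was -0.19 (SE 0.12, 95% interval -0.43 to 0.06, limma adjusted p = 0.638). It was -0.31 in the arrays listed last, -0.07 in those listed first, -0.03 in a fit that also held the Gapdh ratio and -0.09 without ABCC2-/- replicate 10. Adam17, a protease that sheds both proteins, gave -0.21 (SE 0.11, limma adjusted p = 0.628), and Adam10, the constitutive sheddase, gave 0.0087 (SE 0.23, limma adjusted p = 0.993). Adam17 too was lowest in the 3 arrays with the low Gapdh ratio, at 1.89 to 1.97 against 2.22 to 3.03 in the others. In wild-type arrays it read 2.65 to 3.03 in those listed first and 2.22 to 2.3 in those listed last.

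No pair of chemokines passed a test of covariation between grafts of the same genotype. Pearson's r was computed for all 45 pairs of genes over 12 arrays after removing the mean of each genotype, each gene by its brightest probe set, with p from 100000 permutations within genotype. After Benjamini-Hochberg adjustment the lowest permutation p was 0.0982, and 11 had an unadjusted permutation p under 0.05. The share of all gene pairs under that p was not computed, so this count is not read as a trait of chemokines. The r was at least 0.6 in size for 13 of the 45 pairs (28.9%). It was so for 17.1% of all pairs among the 10639 named genes that passed the level filter, which Ccl7 and Cxcl1 did not. Values of this size were thus common on these arrays. Ccl5 and Cxcl16 had the highest r, 0.804 (permutation p = 0.00432, adjusted p = 0.0982; Spearman's rho 0.79, permutation p = 0.00585, adjusted p = 0.124). The r was 0.613 without wild-type replicate 6 and ABCC2-/- replicate 9, the arrays farthest from the median of Ccl5, and 0.491 and 0.524 within the arrays listed first and last. Ccl2 and Cxcl16 had an r of 0.775 (permutation p = 0.00605, adjusted p = 0.0982; rho 0.72, permutation p = 0.0166, adjusted p = 0.124), 0.589 without ABCC2-/- replicates 9 and 3, 0.944 in the arrays listed first and 0.236 in those listed last. With the means of the arrays listed first and last removed as well, an alternative added after the values had been seen, the r was 0.504 for Ccl5 with Cxcl16 (exact permutation p = 0.166) and 0.539 for Ccl2 with Cxcl16 (exact permutation p = 0.12). Both values thus held a part that goes with list order.

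Cxcl9 and Cxcl10, the neighbouring interferon-inducible genes, had an r of 0.76 (permutation p = 0.00655, adjusted p = 0.0982; rho 0.601, permutation p = 0.0572, adjusted p = 0.232). It was 0.682 without ABCC2-/- replicates 9 and 10, 0.612 and 0.953 within the arrays listed first and last, and 0.777 with list order means removed (exact permutation p = 0.0216, adjusted p = 0.243). Wild-type replicate 4 and ABCC2-/- replicate 10 were the highest grafts of their genotype for both genes. Ccl2 and Ccl7 had an r of 0.635 (permutation p = 0.0395, adjusted p = 0.17; rho 0.755, permutation p = 0.00969, adjusted p = 0.124), which was 0.42 without ABCC2-/- replicates 9 and 3, 0.617 in the arrays listed first and 0.398 in those listed last, and 0.479 with list order means removed (exact permutation p = 0.169).

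**Figure D4:**
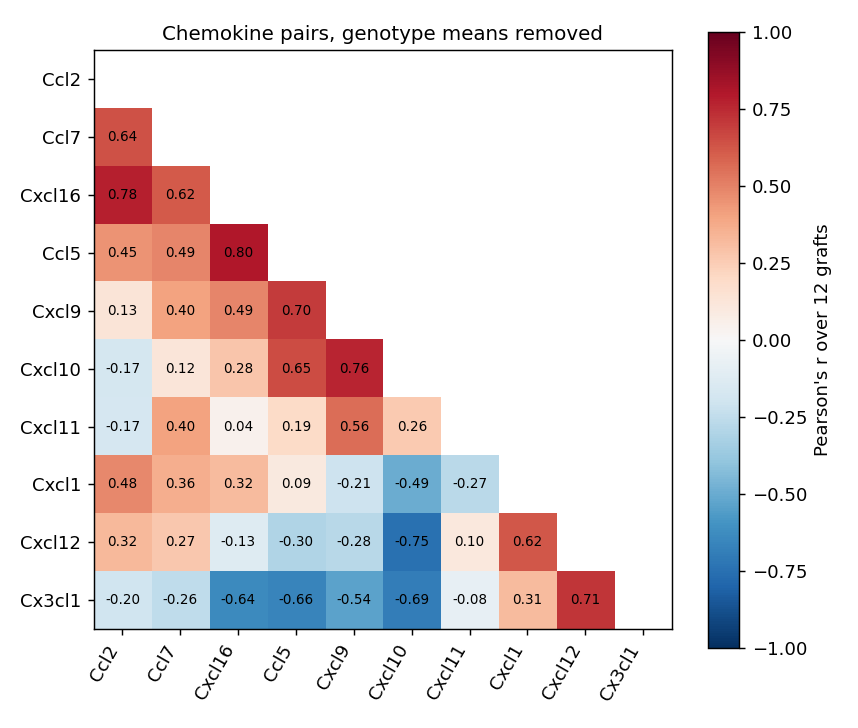
Pearson's r of each pair of chemokine genes over 12 grafts with genotype means removed, from blue (-1) to red (1), genes ordered by role. Cxcl16 with Ccl2 and Ccl5 and Cxcl9 with Cxcl10 are the strongest positive pairs, and Cxcl10 with Cxcl12 the strongest negative pair.

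The stromal Cxcl12 and the membrane-bound Cx3cl1 were low in wild-type replicate 4 and ABCC2-/- replicate 10, where Cxcl10 was high. Cxcl12 and Cx3cl1 had an r of 0.712 (permutation p = 0.0109, adjusted p = 0.0987; rho 0.566, permutation p = 0.0662, adjusted p = 0.232), and Cxcl10 and Cxcl12 an r of -0.748 (permutation p = 0.011, adjusted p = 0.0987; rho -0.58, permutation p = 0.0648, adjusted p = 0.232). Wild-type replicate 4 and ABCC2-/- replicate 10 were lowest of their genotype for Cxcl12 and Cx3cl1 and highest for Cxcl10. For Cxcl10 with Cxcl12 the r was -0.18 without these grafts, and 0.079 and -0.965 within the arrays listed first and last, so that relation rests on them. Cxcl10 and Cx3cl1 had an r of -0.69 (permutation p = 0.0292, adjusted p = 0.163; rho -0.308, permutation p = 0.354, adjusted p = 0.629). That r too rests on these grafts, being 0.099 without them and 0.253 and -0.944 within the arrays listed first and last. For Cxcl12 with Cx3cl1 the r was 0.298 without these grafts, but 0.897 within the arrays listed first, which hold neither graft, and 0.98 within those listed last. With list order means removed as well, that pair had an r of 0.945 (exact permutation p = 0.00154, adjusted p = 0.0694) and Cxcl10 with Cxcl12 one of -0.705 (exact permutation p = 0.071).

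**Figure D5:**
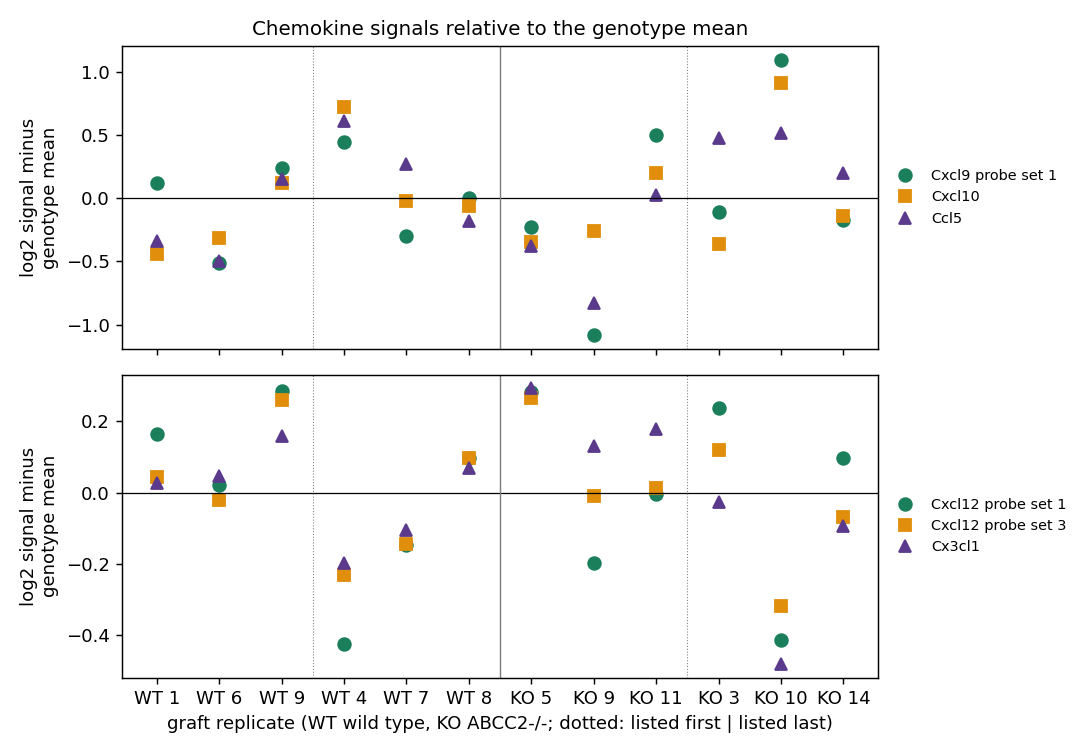
Log2 signal minus the genotype mean in each of the 12 grafts, for Cxcl9, Cxcl10 and Ccl5 (upper panel) and Cxcl12 probe sets 1 and 3 and Cx3cl1 (lower panel), with dotted lines between arrays listed first and last. Wild-type replicate 4 and ABCC2-/- replicate 10 are high in the upper panel and low in the lower one.

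In the same grafts the summed T lymphocyte markers were the highest of each genotype. ABCC2-/- replicate 10 had the highest sum of 13 T lymphocyte markers (4.02, where the other ABCC2-/- grafts and the wild-type grafts lay between 2.72 and 3.57) and of 14 macrophage markers (67.0, against 42.3 to 61.3 in the others). Lyz2 alone gave 34.9 of that macrophage sum of 67.0. Wild-type replicate 4 had the highest T lymphocyte sum of its genotype (3.57), the next being 3.4 in replicate 1. Of the single T lymphocyte markers, Cd2, Cd4, Cd247 and Gzmk were highest there among wild-type grafts, and the others were not. The proximal tubule sum of wild-type replicate 4 was also the highest of its genotype (393, against 288 to 325 in the other wild-type grafts). Its macrophage sum (53.3) was not the highest, those of wild-type replicates 7 and 8 being 53.7 and 55.0. The relation of each chemokine to 5 marker lists was computed in the same way, 50 relations in all, added after the values had been seen, and none passed after adjustment. Cxcl9 had an r of 0.78 with the T lymphocyte list (permutation p = 0.0145, adjusted p = 0.123; rho 0.664, permutation p = 0.0397, adjusted p = 0.206), 0.388 without the 2 farthest arrays and 0.703 and 0.964 within the arrays listed first and last. Cx3cl1 had an r of -0.845 with the same list (permutation p = 0.00292, adjusted p = 0.073; rho -0.678, permutation p = 0.037, adjusted p = 0.206), -0.761 without the farthest arrays and -0.343 and -0.945 within the arrays listed first and last. Ccl5 had an r of 0.833 with the macrophage list (permutation p = 0.00243, adjusted p = 0.073; rho 0.79, permutation p = 0.00617, adjusted p = 0.154), 0.658 without the farthest arrays, 0.985 in the arrays listed first and -0.108 in those listed last. Cxcl1 had an r of 0.837 with the neutrophil list, in which S100a9 was the 1 gene tested (permutation p = 0.0419, adjusted p = 0.15). Its rho was 0.636 (permutation p = 0.108, adjusted p = 0.306). That r was 0.694 without the farthest arrays and 0.974 and 0.597 within the arrays listed first and last. Cxcl1 lay under the floor in 9 arrays, where its values have no order. The part of leukocyte content in these chemokine values was not tested.

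The genes most like each other chemokine over the 12 arrays, out of 14113 named probe sets and with genotype means removed, are given as a description. For Cxcl9 they were RT1-Da, an MHC class II gene (Pearson r 0.93), and Cd3g, a subunit of the T cell receptor complex (0.90). For Cxcl10 they were Arhgef2 (0.90) and Efcab14 (0.85), and for Cxcl11 Ift122 (0.89) and Sema6c (0.86). For Ccl2 they were Gstm2 and Coq9 (0.92 each), and for Ccl5 LOC100910973 (0.94) and Smarcb1 (0.91). For Cxcl16 they were Snrpb and Plpp3 (0.95 each), and for Cx3cl1 Hsf1 (0.95) and Opa3 (0.93). All 12 arrays share the component that follows list order, which enters these values.

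The other genes of the chemokine system gave no call in either direction. Of 26 other chemokines 21 had a probe set and 12 were tested, with 5 positive and 7 negative differences and a median log2 difference of -0.08, where 10639 named genes had a median of -0.04 with 4401 positive and 6238 negative. The lowest p belonged to Ccl9 (-0.62, SE 0.27, limma adjusted p = 0.614) and Ccl28 (-0.26, SE 0.14, limma adjusted p = 0.628), an epithelial chemokine. Of 22 receptors 16 had a probe set and 6 were tested, 3 positive and 3 negative. Cx3cr1, the receptor of Cx3cl1, gave 0.61 (SE 0.31, limma adjusted p = 0.628) and Ccr10, the receptor of Ccl28, gave -0.14 (SE 0.12, limma adjusted p = 0.698). Cxcr3, the receptor of the interferon-inducible ligands, had a log2 difference of 0.02, and the Cxcl12 receptors Cxcr4 and Ackr3 had -0.02 and -0.01. Ccr2, the receptor of Ccl2 and Ccl7, lay under the floor in 5 arrays and was not tested, and Cxcr6 was not analysed here.

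The inducers and signalling genes upstream of these chemokines had 6 positive and 16 negative differences among 22 tested of 26 with a probe set (median log2 -0.08). Myd88, the adaptor of Toll-like receptors, gave -0.23 (SE 0.14, limma adjusted p = 0.638), and Nfkb1, a subunit of NF-kB, gave -0.12 (SE 0.08, limma adjusted p = 0.639). Ifng, the main inducer of Cxcl9, lay under the floor in all 12 arrays. The 10 shedding and retention genes had 1 positive and 9 negative differences (median -0.12). They are the sheddases, the heparan sulfate enzymes and syndecans that hold chemokines on cells, and also Dpp4 and Hmgb1. The lowest p among them was that of Ext2, which builds heparan sulfate (-0.24, SE 0.11, limma adjusted p = 0.614). Their summed signal was 49.0 to 55.0 in the 3 ABCC2-/- arrays with the low Gapdh ratio and 61.7 to 68.7 in the other 9. Most of that sum came from Dpp4 and Sdc4, which read 15.0 and 22.3 in ABCC2-/- replicate 14 and 24.8 and 26.7 in replicate 9. The sum thus mainly follows Dpp4 and Sdc4. The list was mixed gene by gene. Dpp4, Adam17, Ext2 and Hs6st1 each had their lowest values in the 3 arrays with the low Gapdh ratio. For Ext2 these were 1.44 to 1.83, against 1.92 to 2.45 in the others. Adam10, Ext1, Hmgb1, Ndst1, Sdc1 and Sdc4 did not have their 3 lowest values there. The part of the Gapdh ratio in these values was not tested.

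Markers of the cells that chemokines attract or that make them were also without a call. T lymphocyte markers (8 tested) had 2 positive and 6 negative differences and a median of -0.13, with Gzmk at 0.28 (SE 0.14, limma adjusted p = 0.628) and Cd247 at -0.34 (SE 0.19, limma adjusted p = 0.634). Macrophage markers (12 tested) had 10 positive and 2 negative and a median of 0.13, led by Itgax at -0.34 (SE 0.11, limma adjusted p = 0.606) and Mrc1 at 0.38 (SE 0.15, limma adjusted p = 0.612). Of 5 endothelial markers 2 were positive and 3 negative, with Tek at -0.18 (SE 0.10, limma adjusted p = 0.628) and Emcn at 0.07 (SE 0.09, limma adjusted p = 0.771). Of 8 proximal tubule markers 2 were positive and 6 negative, with Slc5a2 at -0.38 (SE 0.11, limma adjusted p = 0.606) and Cubn at -0.22 (SE 0.10, limma adjusted p = 0.623). Of 6 loop and collecting duct markers 2 were positive and 4 negative, with Avpr2 at 0.44 (SE 0.16, limma adjusted p = 0.606) and Slc12a3 at -0.40 (SE 0.17, limma adjusted p = 0.612).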

How the data were processed

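Total RNA of renal cortex was measured on Affymetrix 3′ arrays, per the labels' protocols, 1 for each of 12 grafts. The deposited numbers are linear intensities, 1 per probe set and array, and the submitters' processing notes name MAS5 and GCOS with no version. The minimum, 0.01, held 3.56% of values. No further normalization was applied.

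Signals under the floor, the pooled 20th percentile (0.0694), were set to it before log2, which understates changes of dim genes. Of 31042 probe sets other than 57 controls, 18625 reached the 40th percentile of mean log2 signal (-2.53). They were tested with limma 3.58.1 in R 4.3.3 (lmFit, eBayes with a trend), adjusted by Benjamini-Hochberg over all of them, with a threshold of 0.05. Single probe sets were also compared by a two-sided exact permutation test over 924 assignments, whose smallest p is 0.00216. The number of arrays limits the precision. The fit and the correlations were tested on simulated data.

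The platform annotation named genes: 20832 probe sets had 1 symbol, 436 had several, and 20764 matched current symbols through Entrez numbers. The brightest probe set stood for each gene of a list. Named were the chemokines, Abcc2, in each list the 2 tested genes of lowest p, and the 2 genes most like each chemokine that passed the filter. Adam10, S100a8, Ifng, the receptors of the chemokines and all other genes named were added with their values known. The chemokines and lists were chosen with earlier results of these data known. Alternatives varied the floor, filter, scaling, variance model, array weights, covariates and arrays.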

Additional observations from a re-analysis of the deposited data

How the results depend on the processing

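No chemokine probe set passed the threshold under the alternatives run, with an exception: in the arrays listed last alone 1 passed, Cxcl12 probe set 2. Over all probe sets, 4 passed; 2 passed with the filter at the 60th percentile, 112 with list order as a block and 1190 in the arrays listed last alone, and 3 to 5 when 1 replicate was left out. The log2 differences of Cxcl1, Cxcl11, Cxcl16, Cx3cl1 and Cxcl12 probe set 2 kept their sign in every alternative run, the last with 0.71 to 1.22 when 1 replicate was left out. Each of the other differences changed sign in at least 1 alternative. Ccl2, at 0.29 in the main fit, was -0.0103 in a fit that held the Gapdh ratio. Ccl5 was -0.0013 with arrays divided by their median, -0.17 with the Gapdh ratio and -0.11 in the arrays listed first, and -0.0481 to 0.22 with 1 replicate left out. Ccl7 was 0.285 in the arrays listed last and -0.26 to 0.0543 with 1 left out. Cxcl10 was -0.30 to 0.0264 with 1 left out. Cxcl12 probe set 1 was -0.0217 in the arrays listed first, and probe set 3 was -0.0204 with arrays divided by their median and -0.0168 to 0.10 with 1 left out. Cxcl9 probe set 1 was 0.0217 with a pseudocount of 0.1, 0.0183 with array weights, 0.22 in the arrays listed last and -0.22 to 0.21 with 1 left out. Probe set 2 was -0.19 in the arrays listed last and -0.0507 to 0.44 with 1 left out. Dividing arrays by their median moved the median difference of all probe sets from -0.02 to -0.08. The cause of these changes was not tested.

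For Ccl7, Cxcl1 and Cxcl9 probe set 2, which were compared by permutation, array weights, the variance model, the block and the covariate were not run, and the stricter filter left out Cxcl12 probe set 2 and Cxcl9 probe set 1. No paired analysis was possible because the genotypes share only 1 replicate number. Signals at the floor have no order, which limits Ccl7 and Cxcl1.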

Other observations

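Among the other chemokines that the level filter left out, Ccl24, an eosinophil attractant that acts through Ccr3, was the single list gene whose genotypes did not overlap. Its signal ran from 0.0135 to 0.174 in wild-type grafts (mean 0.117 ± 0.0586, SD, n = 6) and from 0.202 to 0.279 in ABCC2-/- grafts (0.23 ± 0.0286, SD, n = 6). The log2 difference was 0.92 (SE 0.21, limma adjusted p = 0.447 without the filter), and the exact permutation p, 0.00216, is the smallest the design allows. Ccl24 was named after its values were seen, among 21 other chemokines with a probe set, and 0.403% of all probe sets had no overlap. Ccl22, which draws T cells through Ccr4, gave 0.52 (SE 0.19, limma adjusted p = 0.665 without the filter), with 0.102 to 0.153 in wild-type and 0.113 to 0.228 in ABCC2-/- grafts. Ppbp, a platelet chemokine, gave 0.41 (SE 0.18, limma adjusted p = 0.672 without the filter). Ccl22 and Ppbp had the next lowest p of these chemokines in that fit and were also named after their values were seen. Of the rest that the filter left out, Ccl11, Ccl17 and Xcl1 gave 0.38, 0.22 and 0.04. Cxcl2, Cxcl6 and Cxcl14 gave -0.03, -0.17 and -0.04. Ccr3 lay under the floor in 4 arrays and gave 0.08 (SE 0.32).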
